A study of Homo sapiens with 18 samples.

Results

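The measurements described are the mRNA levels of 9 genes of glucose production and its control, PCK1, PPARGC1A, CEBPA, CEBPB, CEBPD, FOXO1, NR3C1, IRS2 and FBP1. They form a list by name and role, with no threshold on their values, though it was chosen with earlier results of these data known. The list stands among 34255 genes with counts that could be assigned, of which 15519 passed a filter on low counts and were tested. All 9 passed that filter, FBP1 in 12 of the 18 libraries and in none of the 6 from β-arrestin1/2 KO cells. RNA-Seq had been performed on HEK293 cells, a human embryonic kidney line, to ask what Gαs and the β-arrestins each contribute to the transcriptional response to the β2-adrenergic receptor (β2AR). For these 9 genes the question was whether the change of PCK1 was shared with the rest of the liver-type programme.

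The cells were wildtype, Gαs KO (GNAS disrupted with CRISPR-Cas9) or β-arrestin1/2 KO (ARRB1 and ARRB2 disrupted). All were transfected with a plasmid for wildtype β2AR, serum starved overnight and, 48 h after transfection, given vehicle (basal) or 1 μM isoproterenol, a β-adrenergic agonist, for 1 h. Each of the 6 groups had 3 biological replicates, so there were 18 libraries. The responses are therefore those of cultures given extra receptor. Whether a KO line was 1 clone or a pool is not given in the sources used here, and how far the replicates were separate cultures is not stated either, so p-values measure the spread between these libraries.

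Gluconeogenesis is the making of glucose from lactate, amino acids and glycerol, and it is carried out mainly by hepatocytes and by the proximal tubule of the kidney. In fasting, glucagon and adrenaline raise cAMP in hepatocytes through Gαs, protein kinase A phosphorylates the transcription factor CREB, and genes such as PCK1 and PPARGC1A are transcribed. Glucocorticoids and C/EBP factors add to this through their own sites, while insulin, acting through IRS proteins, opposes it by keeping FOXO1 out of the nucleus.

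The cells did not carry a liver profile. Of 8 hepatocyte markers (ALB, APOA1, APOB, TTR, SERPINA1, HNF4A, FGB and CYP3A4) none passed the filter, and their summed level was at most 1.88 TPM (a transcript level scaled for length and depth) in any library. Of 6 proximal tubule markers, 4 reached 1 TPM in at least 1 library, and the sum of the 6 was between 4.85 and 11.5 TPM. The 4 adipocyte markers summed to at most 1.86 TPM, most of it from PLIN1 (at most 44 counts), while ADIPOQ, LEP and FABP4 had at most 7, 4 and 1 counts. Of genes that mark HEK293 and embryonic kidney cells, NEFL was at 42.8 to 189 TPM over the 18 libraries, SALL1 at 6.77 to 16.5 TPM, EYA1 at 3.43 to 13.5 TPM, PAX2 at 0.536 to 5.22 TPM and NEFM at 0.526 to 2.83 TPM.

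Library totals ran from 17908597 to 25019834 estimated counts, of which 92.9 to 93.7% could be assigned to a gene. GNAS had 18312 to 39809 counts in the 12 libraries with intact GNAS and 1178 to 1630 in Gαs KO libraries. ARRB2 had 288 to 514 counts in β-arrestin1/2 KO libraries and at least 1244 elsewhere, whereas the ranges of ARRB1 overlapped between lines. Replicate 1 of wildtype basal cells stood apart: its counts fell on transcripts with a mean GC content of 52.5%, against 49.2 to 50.1% in the other 17 libraries. Without it the number of genes called rose in most comparisons, to 1.10% of 15773 tested for the wildtype response and 11.7% for the β-arrestin1/2 KO response. For the 9 genes and the related lists, values without it are given where a call changed or a value moved by more than 1.5 times. Of the β-arrestin1/2 KO libraries, the 3 basal ones (49.8 to 50.1%) were above the 3 with isoproterenol (49.3 to 49.4%) in the same measure.

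Below, a normalized count is a count scaled by library size and edgeR's TMM factor, a log2 difference comes from edgeR's quasi-likelihood model of all 18 libraries, and a gene is called when its Benjamini-Hochberg adjusted p over all 15519 genes is under 0.05. A standard error (SE) and a 95% confidence interval come from the same model. With 3 libraries against 3, an exact permutation test of a single value cannot go below a two-sided p of 0.1. In RNA from whole cultures, fewer cells that express a gene and less RNA per cell cannot be told apart.

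Stretches of promoter sequence are shown because the members differ in whether they hold the letters bound by CREB. The full cAMP response element TGACGTCA was found on either strand in 1.85% of the 35116 RefSeq promoters of 300 bases (250 before and 50 after the start, GRCh38.p14), and its half-site TGACG, which also lies inside the full element, in 24.6%. For 7 of the 9 genes the table held a promoter, and the one nearest to the transcript with most counts was taken. For PPARGC1A and FBP1 it lay 8976 and 1105 bases from the start of that transcript, so the bases at that start were not searched. None of the 7 stretches searched held TGACGTCA, and only those of CEBPB and NR3C1 held TGACG. The 250 bases before the RefSeq start of these 2 genes and of IRS2, which held neither, are given 5′ to 3′ on the strand of the gene, with TGACG or its reverse complement in capitals.
CEBPB, chr20:50190580-50190829, plus strand: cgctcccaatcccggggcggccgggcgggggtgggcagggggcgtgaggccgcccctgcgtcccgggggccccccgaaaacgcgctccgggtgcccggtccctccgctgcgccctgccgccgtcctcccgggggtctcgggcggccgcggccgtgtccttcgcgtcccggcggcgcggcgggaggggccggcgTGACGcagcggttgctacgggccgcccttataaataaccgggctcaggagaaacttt
NR3C1, chr5:143403687-143403936, minus strand: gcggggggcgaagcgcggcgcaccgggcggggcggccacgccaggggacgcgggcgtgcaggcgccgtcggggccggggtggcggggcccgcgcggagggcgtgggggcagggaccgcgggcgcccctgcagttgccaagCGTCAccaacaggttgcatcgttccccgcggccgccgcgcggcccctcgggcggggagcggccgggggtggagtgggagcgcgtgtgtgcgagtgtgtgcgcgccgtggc
IRS2, chr13:109786584-109786833, minus strand: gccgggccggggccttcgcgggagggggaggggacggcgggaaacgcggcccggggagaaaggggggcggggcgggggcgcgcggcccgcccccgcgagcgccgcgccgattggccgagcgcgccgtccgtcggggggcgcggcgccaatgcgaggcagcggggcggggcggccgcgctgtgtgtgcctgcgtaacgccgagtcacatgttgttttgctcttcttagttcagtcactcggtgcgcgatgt
In CEBPB the half-site began 57 bases before the RefSeq start and a TATAAA box, found in 11.5% of promoters, 29 bases before it, while the GENCODE start of the main CEBPB transcript lay 96 bases further upstream. In NR3C1 the match was on the reverse strand, from 110 bases before the start. Of the other motifs searched on both strands, a C/EBP element (TTNNGCAA, 10.5% of promoters) was found only for PPARGC1A, whose table promoter lay 8976 bases from the start of its main transcript. A FOXO element (TGTTTAC, 3.42%) and a glucocorticoid receptor half-site (TGTTCT, 14.8%) were found in none of the 7. A match is a description of letters and not of binding, and PCK1 and CEBPD had no entry.

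PCK1 encodes the cytosolic phosphoenolpyruvate carboxykinase, which turns oxaloacetate into phosphoenolpyruvate and is the best known cAMP target of the pathway. It lies on chromosome 20 from 57561080 to 57568112 (GRCh38, plus strand). The 3 wildtype basal libraries had 339, 199.6 and 291 normalized counts of PCK1, and the 3 isoproterenol libraries had 2522, 2386 and 2865. The β-arrestin1/2 KO libraries had 348, 355 and 422 at basal and 12394, 9900.3 and 11779 with isoproterenol. Every stimulated library of these lines was far above every basal one, and every stimulated β-arrestin1/2 KO library was above every stimulated wildtype library. Without Gαs the counts were 15.9, 17.8 and 16.8 at basal and 23.5, 11.7 and 15.9 with isoproterenol, so the groups overlapped.

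Isoproterenol raised PCK1 by 3.23 on the log2 scale in wildtype cells (SE 0.17, 9.36-fold, adjusted p = 5.729e-09, edgeR's quasi-likelihood test) and by 4.92 in β-arrestin1/2 KO cells (SE 0.18, 30.3-fold, adjusted p = 3.144e-11). The PCK1 difference in Gαs KO cells was 0.02 (SE 0.33, 95% interval -0.67 to 0.72, adjusted p = 1), on raw counts of 12 to 24 a library. Without wildtype basal replicate 1 the wildtype value was 3.40. With offsets for GC content and length, chosen after seeing the data, the values were 3.25, 4.94 and 0.02. Among the 15519 genes, the PCK1 difference ranked 46th from the highest in wildtype cells and 20th in β-arrestin1/2 KO cells.

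The response of PCK1 itself differed between lines. Its log2 response was larger in β-arrestin1/2 KO cells than in wildtype cells by 1.69 (SE 0.22, 95% interval 1.22 to 2.17, adjusted p = 0.002337, edgeR's quasi-likelihood test), a 3.24-fold larger rise, and by 1.52 without wildtype basal replicate 1. The Gαs KO response was smaller than the wildtype response, with a difference of -3.20 (SE 0.37, interval -4.00 to -2.41, adjusted p = 0.0003669), and -3.37 without that replicate. These 2 differences use the same wildtype libraries. PCK1 was the only one of the 9 genes called in either, where 0.168% of all genes tested were called for β-arrestin1/2 KO cells and 0.161% for Gαs KO cells. Without wildtype basal replicate 1, CEBPA was called as well in the first, with a response difference of -0.55 (adjusted p = 0.02719), among 8.25% of all genes called there.

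**Figure D1:**
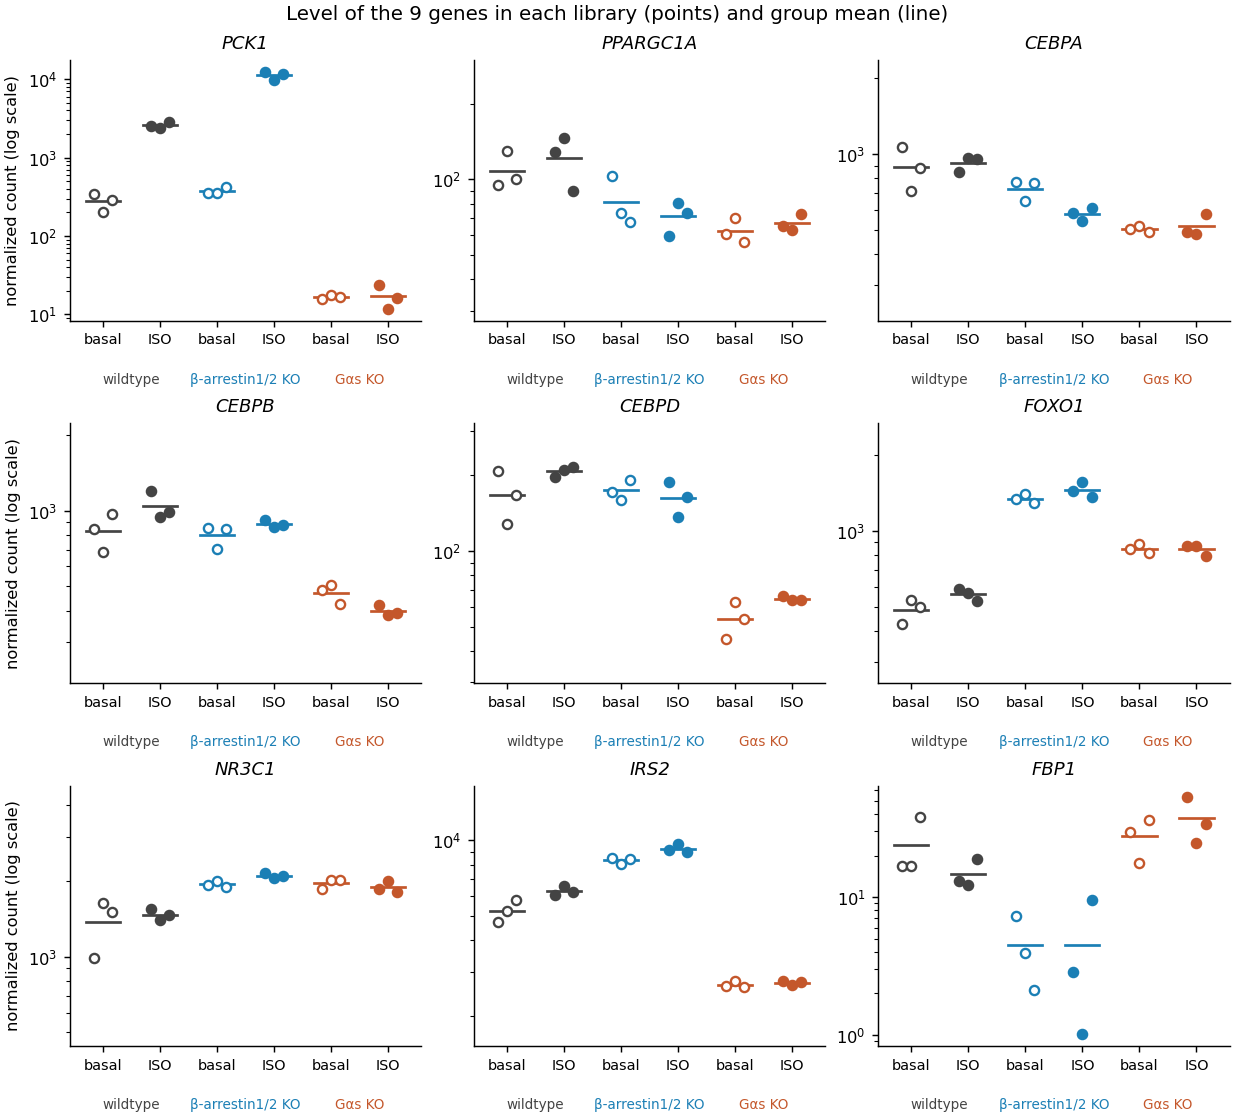
Normalized counts (log scale, one panel per gene) of the 9 genes in each library, with open points for basal and filled points for isoproterenol (ISO), lines for group means, and grey, blue and orange for the wildtype, the β-arrestin1/2 KO and the Gαs KO line. Mean PCK1 moved from 276 to 2591 in the first and from 375 to 11358 in the second line and stayed near 17 in Gαs KO cells, while the log2 responses of the other 8 genes lay between -0.69 and 0.41.

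Per length, the level of PCK1 was 8.99 ± 2.92 TPM (SD, n = 3) in wildtype cells at basal and 64.1 ± 7.93 with isoproterenol, 11.3 ± 1.84 and 304 ± 33.0 with the β-arrestins deleted, and 0.446 ± 0.0828 and 0.394 ± 0.133 in Gαs KO cells. The order of the 6 groups by normalized count was β-arrestin1/2 KO with isoproterenol, wildtype with isoproterenol, β-arrestin1/2 KO basal, wildtype basal, and then the 2 Gαs KO groups. Only the last pair of neighbours overlapped. Most PCK1 counts were on its coding transcript, with 83.2 to 88.8% in stimulated wildtype libraries and 83.4 to 86.0% in stimulated β-arrestin1/2 KO libraries. At basal this transcript held 81.9 to 94.2% in wildtype libraries, which overlaps the stimulated range, and 89.2 to 93.4% in β-arrestin1/2 KO libraries. The most abundant transcript with a retained intron held 0.4 to 9.6% at basal and 9.7 to 14.5% with isoproterenol in wildtype cells, and 0.7 to 7.5% and 11.1 to 13.4% in β-arrestin1/2 KO cells. These shares rest on Salmon's split between transcripts, whose error the table does not give.

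No other gene of the 9 was called for a response to isoproterenol. The count was 1 of 9 in wildtype cells, where 0.464% of all genes were called, 1 of 9 in β-arrestin1/2 KO cells, where 1.13% were, and 0 of 9 in Gαs KO cells, where 0% were (DESeq2's Wald test called 0 of the 9 and 8 genes of all it tested, and 0 of the 9 had an unadjusted p under 0.05). In wildtype cells 4 of the 9, PCK1 included, had an unadjusted p under 0.05, and in β-arrestin1/2 KO cells 3 had. The other 8 genes had log2 responses from -0.69 to 0.32 in wildtype cells, from -0.34 to 0.15 in β-arrestin1/2 KO cells and from -0.24 to 0.41 in Gαs KO cells.

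**Figure D2:**
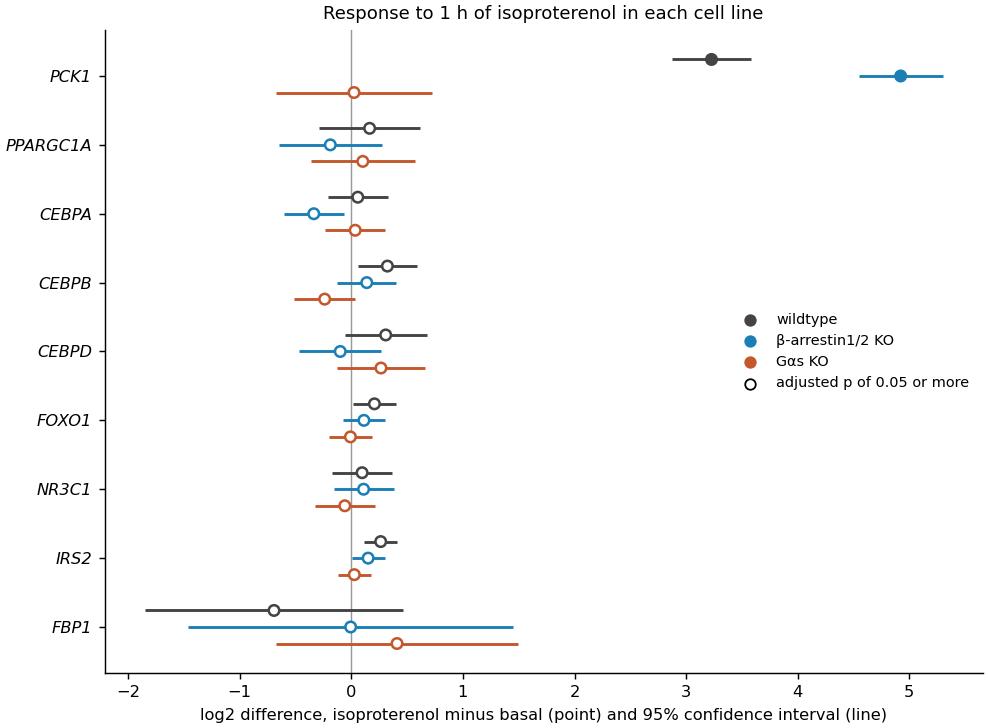
Log2 difference between isoproterenol and basal libraries of the 9 genes (points, horizontal axis) with 95% confidence intervals (lines) in wildtype (grey), β-arrestin1/2 KO (blue) and Gαs KO cells (orange), filled where the adjusted p was under 0.05. PCK1 stands at 3.23 and 4.92 in wildtype and in β-arrestin1/2 KO libraries, and no other point is filled.

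FBP1 encodes fructose-1,6-bisphosphatase, the enzyme that releases fructose 6-phosphate and so passes carbon up towards glucose. It was close to the limit of detection. Raw counts of FBP1 were 16, 15 and 34 in wildtype basal libraries, 12, 12 and 18 with isoproterenol, 7, 5 and 2 in β-arrestin1/2 KO basal libraries, 3, 1 and 9 with isoproterenol, 32, 19 and 43 in Gαs KO basal libraries, and 54, 25 and 30 with isoproterenol. Basal and stimulated libraries overlapped in every line, and β-arrestin1/2 KO libraries were below all others. The response of FBP1 was -0.69 in wildtype cells (95% interval -1.85 to 0.47), -0.01 in β-arrestin1/2 KO cells (-1.46 to 1.45) and 0.41 in Gαs KO cells (-0.67 to 1.49), and a change of 1 on the log2 scale, up or down, lay inside the interval in β-arrestin1/2 KO cells at this depth.

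PPARGC1A encodes PGC-1α, a coactivator that cAMP induces in liver and that drives gluconeogenic genes together with FOXO1 and HNF4A. Its 3 wildtype libraries had 94.8, 129 and 101 normalized counts at basal and 128, 146 and 89.8 with isoproterenol. For the β-arrestin1/2 KO line they were 103, 73.6 and 67.7 at basal and 59.5, 80.9 and 73.6 with isoproterenol. Within each line the basal and stimulated libraries overlapped. The log2 response was 0.16 in wildtype cells (95% interval -0.29 to 0.61, adjusted p = 0.7257, edgeR's quasi-likelihood test; 0.08 without replicate 1 of the basal group), -0.19 in β-arrestin1/2 KO cells (-0.65 to 0.27, adjusted p = 0.8573) and 0.10 in Gαs KO cells (-0.36 to 0.57, adjusted p = 1). The upper bounds were below 1 on the log2 scale in all 3 lines, whereas PCK1 rose by 3.23 in the same wildtype libraries.

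The C/EBP genes encode bZIP transcription factors. C/EBPα and C/EBPβ bind the PCK1 promoter in liver, and CEBPB and CEBPD are themselves immediate cAMP and glucocorticoid targets in hepatocytes and preadipocytes. CEBPB had 845, 684 and 971 normalized counts in wildtype basal libraries and 1195, 942 and 991 with isoproterenol. The highest basal library was above the lowest stimulated one. Its log2 response was 0.32 in wildtype cells (95% interval 0.06 to 0.59, unadjusted p = 0.01993, adjusted p = 0.41, edgeR's quasi-likelihood test), 0.14 in β-arrestin1/2 KO cells (-0.13 to 0.40) and -0.24 in Gαs KO cells (-0.51 to 0.03). The difference of the Gαs KO response of CEBPB from the wildtype response was -0.56 (SE 0.18, adjusted p = 0.7308) and was not called.

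CEBPD had 208, 128 and 167 normalized counts in wildtype basal libraries and 198, 211 and 215 with isoproterenol, a response of 0.31 (interval -0.06 to 0.68, adjusted p = 0.5203) that was 0.49 without basal replicate 1 and called in neither. Its response was -0.10 with the β-arrestins deleted and 0.27 with Gαs deleted, neither called. CEBPA, the C/EBP gene tied to the differentiated hepatocyte and adipocyte, had 1071, 710.3 and 881 normalized counts in wildtype basal libraries and 850.4, 963 and 958 with isoproterenol, a response of 0.06 (0.22 without basal replicate 1, not called). The gene was lower in every stimulated β-arrestin1/2 KO library, at 580.1, 541 and 609 against 772, 649 and 764 at basal. That difference of -0.34 (95% interval -0.61 to -0.07) was not called over all 18 libraries (adjusted p = 0.4177, edgeR's quasi-likelihood test) and was called without wildtype basal replicate 1 (-0.34, adjusted p = 0.02845), when 11.7% of all genes were. That library is in neither group compared, and why the call changed was not tested. With the GC and length offsets it was -0.11 (adjusted p = 0.6443).

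FOXO1, the forkhead factor that insulin inhibits through AKT, and NR3C1, the glucocorticoid receptor, act on the promoters of PCK1 and of the glucose-6-phosphatase gene. FOXO1 had 425, 531 and 500.2 normalized counts in wildtype basal libraries and 588, 567 and 525 with isoproterenol, and the response was 0.21 (interval 0.01 to 0.40, adjusted p = 0.4573), or 0.12 without basal replicate 1. The FOXO1 response was 0.11 with the β-arrestins deleted and -0.01 with Gαs deleted. NR3C1 had 986, 1641 and 1505 normalized counts in wildtype basal libraries, of which the lowest was replicate 1, and 1548, 1398 and 1472 with isoproterenol. Its response was 0.10 over all libraries, -0.10 without that replicate, and called in neither, and it was 0.11 and -0.06 in the KO lines.

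IRS2, the insulin receptor substrate that cAMP raises in hepatocytes and islet cells, was the only other member whose wildtype libraries did not overlap. Its wildtype libraries had 4721, 5227 and 5765 normalized counts at basal and 6064, 6552 and 6242 with isoproterenol, so the 3 stimulated libraries were above the 3 basal ones. The log2 response of IRS2 was 0.26 (SE 0.07, 95% interval 0.11 to 0.41, 1.20-fold, adjusted p = 0.1701, edgeR's quasi-likelihood test). It was not called in that model, but was called by DESeq2's Wald test (0.26, adjusted p = 0.01678) and without wildtype basal replicate 3 (0.34, adjusted p = 0.0334). Without replicate 1 of that group it was 0.19 (adjusted p = 0.08079). Counts of IRS2 in the β-arrestin1/2 KO line were 8509, 8041 and 8437 at basal and 9148, 9630.2 and 8958 with isoproterenol, again without overlap, and the response was 0.15 (SE 0.07, adjusted p = 0.5934), called without wildtype basal replicate 1 (0.15, adjusted p = 0.03525). Without Gαs the IRS2 response was 0.03 (SE 0.07), between libraries of 2599 to 2766 at basal and 2658 to 2751 with isoproterenol.

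Counting genes whose 3 basal and 3 stimulated libraries did not overlap gave 2 of 9 in wildtype cells (PCK1 and IRS2), where 9.01% of all genes did not overlap. For β-arrestin1/2 KO libraries it gave 5 of 9 (PCK1, IRS2, CEBPB and NR3C1 higher, CEBPA lower) against 29.7%, and this is the line whose basal and stimulated libraries were separated in GC content. For Gαs KO libraries it gave 2 of 9 (CEBPD higher, CEBPB lower) against 10.5%. Apart from PCK1, no gene in these counts differed between basal and stimulated libraries by more than 0.34 on the log2 scale.

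Of the other 3 bypass enzymes, G6PC, the catalytic subunit of glucose-6-phosphatase in liver, had at most 1 count in any library, and FBP2, the muscle fructose-1,6-bisphosphatase, had 0 to 11. PC, pyruvate carboxylase, had 793 to 1633 counts and a wildtype response of -0.45 (SE 0.17, adjusted p = 0.3919), with 1701 normalized counts in wildtype basal replicate 1 against 923 and 925 in the other basal libraries. PCK2 was not analysed here. Of 23 enzymes and carriers of gluconeogenesis tested, 0 were called in either direction for a response in any of the 3 lines by edgeR's quasi-likelihood test, and 0 by DESeq2. With 0.464% and 1.13% of all genes called in the responsive lines, a list of 23 may hold none in any case. At an unadjusted p under 0.05 there were 4 in wildtype cells, 1 with the β-arrestins deleted and 0 with Gαs deleted. Their median response was -0.18 in wildtype cells, beside -0.002 over all genes, and 0.05 without wildtype basal replicate 1, when 0 were called in wildtype cells and 1 was in the β-arrestin1/2 KO line.

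Of 22 genes that liver switches on in fasting or with cAMP, 12 passed the filter. None was called for a response in the 3 lines by edgeR's quasi-likelihood test, with 2, 2 and 0 at an unadjusted p under 0.05, and DESeq2 called 1, CDKN1A, in β-arrestin1/2 KO cells. The median response of the 12 was -0.10 in wildtype cells and 0.07 with the β-arrestins deleted. Of the 9 genes, these 12 and the 23 enzymes, PCK1 alone was called for a response by edgeR's quasi-likelihood test over all 18 libraries. When wildtype basal replicate 1 was left out, 1 of the 12 was called higher in wildtype cells and 3 where the β-arrestins were deleted, beside 1.10% and 11.7% of all genes.

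Regulators of gluconeogenic genes included a set that was called. Of 47 tested, edgeR called 8 higher in wildtype cells and 10 where the β-arrestins were deleted, and none lower in these lines. In Gαs KO cells 0 were called (0 at an unadjusted p under 0.05 and 0 by DESeq2). DESeq2's Wald test called 10 in wildtype cells, among them ATF4, whose edgeR difference there was -0.51. It called 10 in β-arrestin1/2 KO cells. Of all genes it called 189 of 15081 and 285 of 15542 in these 2 lines. Over all genes edgeR called 0.464%, 1.13% and 0%. The list was chosen with earlier results of these data known, so its share is not independent of them. With wildtype basal replicate 1 left out, 1.10% of all genes were called for the wildtype response and 11.7% for the β-arrestin1/2 KO response. In that setting the list had 8 higher and 1 lower in wildtype cells and 14 higher and 4 lower in the β-arrestin1/2 KO line. Over all 18 libraries the median response of the 47 was 0.08 and 0.02 in the first 2 lines. Most of the list thus stayed near the median of all genes. The genes with the largest rise were the orphan nuclear receptors NR4A2, NR4A3 and NR4A1, which bind gluconeogenic promoters in liver, and SIK1, a kinase that cAMP induces and that restrains the CREB coactivators. In wildtype cells their log2 responses were 3.52, 2.32, 1.83 and 2.45, and ATF3 had 0.89. With the β-arrestins deleted the values were 4.68, 4.37, 3.37, 3.20 and 1.87. The difference between these lines was called for 5 regulators, NR4A3 (2.05), NR4A1 (1.54), NR4A2 (1.16), ATF4 (1.16) and ATF3 (0.98), beside 1.69 for PCK1. Over all genes 0.168% were called for this difference. Without wildtype basal replicate 1, 9 of the 47 were called higher and 2 lower, beside 8.25% of all genes. For ATF4 the difference lay between -0.51 in wildtype cells, called by DESeq2 but not by edgeR, and 0.65 in β-arrestin1/2 KO cells.

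Among 12 known targets of the glucocorticoid receptor, 4 rose both in wildtype cells and where the β-arrestins were deleted. They were DUSP1 (2.52 and 3.56), SGK1 (0.93 and 1.17), TSC22D3 and KLF9, which is also 1 of the called regulators above. Of the 12, 5 and 8 rose when wildtype basal replicate 1 was left out, and the share over all genes went from 0.464% to 1.10% and from 1.13% to 11.7%. This list and the next were also chosen with earlier results of these data known. Without Gαs 0 of the 12 were called (0 at an unadjusted p under 0.05 and 0 by DESeq2). Of 24 genes of insulin signalling or FOXO control, 1 rose (CITED2, 0.70, also 1 of the called regulators) and 1 fell (TXNIP, -1.04) in wildtype cells. With the β-arrestins deleted CITED2 (1.02) and KLF6 (0.46) rose and TXNIP (-1.54) fell, and in Gαs KO cells 0 were called (1 at an unadjusted p under 0.05 and 0 by DESeq2). This list, with wildtype basal replicate 1 left out, had 2 higher and 1 lower in wildtype cells and 8 higher and 2 lower with the β-arrestins deleted, beside the same shares over all genes. The mRNAs of the receptor NR3C1 and of FOXO1 had responses of 0.10 and 0.21 in wildtype cells, neither called. Whether the receptor or FOXO1 took part in the responses of these lists was not tested.

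**Figure D3:**
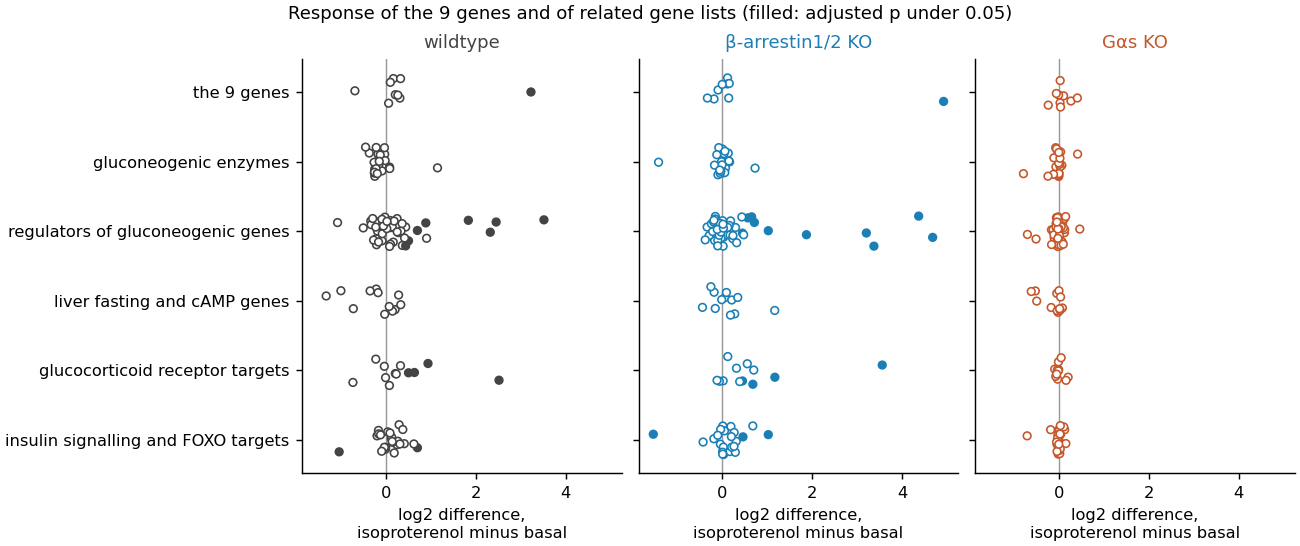
Log2 difference between isoproterenol and basal libraries (horizontal axis) of the 9 genes and of every tested gene of 5 related lists, 1 panel per cell line, filled where the adjusted p was under 0.05. Filled points are the single point of PCK1 in the top row and genes of the regulator, glucocorticoid receptor and insulin lists; the enzyme and liver fasting rows hold none, and the Gαs KO panel is without filled points.

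The genes whose log2 CPM (counts scaled to library size) followed PCK1 most closely over the 18 libraries were not gluconeogenic genes. Of 15518 genes ranked by Pearson's r with PCK1, the first 6 were RHOB (0.99), SPRY2 (0.99), FOSB (0.98), DUSP5 (0.98), ID2 (0.98) and SGK1 (0.97). Among the other 8 members, IRS2 ranked 66th (0.89), CEBPB 118th (0.87), CEBPD 261st (0.83), CEBPA 2704th (0.47), PPARGC1A 3484th (0.38), FOXO1 5275th (0.21), NR3C1 8542nd (-0.09) and FBP1 14529th (-0.68). For FBP1 the β-arrestin1/2 KO libraries had at most 9 raw counts, all below the floor of the filter. Its rank is therefore no support for a course opposite to PCK1. The 18 points share 6 groups, so these values mix the response to isoproterenol with differences between lines. RHOB, for example, had mean normalized counts of 4888 and 7592 in the wildtype line, 4819 and 10390.0 in the β-arrestin1/2 KO line and 2954 and 2948 in the Gαs KO line, each basal value first.

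Between lines at basal the picture was wider. With Gαs deleted 8 of the 9 genes were called against wildtype cells, 6 lower and 2 higher, where 31.3% of all genes were called. With the β-arrestins deleted 4 of the 9 were, 3 higher and 1 lower, where 33.6% were (the lower one was FBP1, which passed the filter only through the other lines). Both comparisons use the same wildtype basal libraries.

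Basal PCK1 was lower in Gαs KO than in wildtype cells, by a log2 difference of -4.03 (SE 0.23, adjusted p = 2.645e-09, edgeR's quasi-likelihood test) between 276 ± 70.6 normalized counts in wildtype and 16.8 ± 0.97 in Gαs KO libraries (SD, n = 3). Its mean was 375 ± 40.8 in the β-arrestin1/2 KO line, a difference of 0.44 (SE 0.16, adjusted p = 0.05015) that was not called here, was called in 8 of 15 alternative analyses, and was 0.61 without wildtype basal replicate 1 (adjusted p = 0.003826). No library of the 3 lines overlapped with another line's at basal for this gene.

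The coactivator and the C/EBP genes were lower in Gαs KO cells. CEBPD had 44.8, 62.8 and 53.6 normalized counts there at basal against 128 to 208 in wildtype cells, a log2 difference of -1.64 (SE 0.18, adjusted p = 5.27e-06). CEBPB had 483, 508 and 425 against 684 to 971, a difference of -0.82 (SE 0.13). For CEBPA the libraries were at 504, 518 and 487 against 710.3 to 1071, again -0.82 (SE 0.13), and PPARGC1A had 60.7, 70.3 and 56.1 against 94.8 to 129, a difference of -0.80 (SE 0.22, adjusted p = 0.0104) that was not called when only the libraries of these groups were fitted (-0.79, adjusted p = 0.07006). For each of these 4 genes the Gαs KO libraries were below every wildtype basal library. With the β-arrestins deleted the same 4 genes differed from wildtype cells by 0.06, -0.06, -0.29 and -0.41 in the order CEBPD, CEBPB, CEBPA and PPARGC1A, and none was called here. Of 15 alternative analyses, CEBPA was called in 3, PPARGC1A in 2, and CEBPB and CEBPD in 0. Without wildtype basal replicate 1 the difference of CEBPD was 0.25, that of CEBPB -0.04 and that of CEBPA -0.12.

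IRS2 took different directions in the KO lines, and FOXO1 and NR3C1 were higher in both. IRS2 was lower in Gαs KO cells, with 2625, 2766 and 2599 normalized counts at basal (-0.98, SE 0.07, adjusted p = 4.849e-08, edgeR's quasi-likelihood test), and higher in β-arrestin1/2 KO cells (0.67, SE 0.07, adjusted p = 2.715e-06). FOXO1 was higher in both, with 844, 890.3 and 817 in Gαs KO cells (0.81, SE 0.09) and 1342, 1403 and 1294 in β-arrestin1/2 KO cells (1.47, SE 0.09, adjusted p = 8.887e-09). NR3C1 was higher by 0.51 (SE 0.13) and 0.50 (SE 0.13), and by 0.32 and 0.31 without wildtype basal replicate 1, which had the lowest NR3C1 count. These 2 NR3C1 calls were lost when only the libraries of the groups compared were fitted (adjusted p = 0.1582 and 0.1628). FBP1 had 2 to 7 raw counts a library in the β-arrestin1/2 KO line and 15 to 34 in wildtype cells, a fitted difference of -2.39 (SE 0.61, adjusted p = 0.006835). It passed the filter only through the other lines, so this call is no support for a difference, and it was not made with only the libraries of these groups (adjusted p = 0.05304). In Gαs KO cells FBP1 differed by 0.23 (SE 0.52), and by 0.03 without wildtype basal replicate 1, and was not called.

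**Figure D4:**
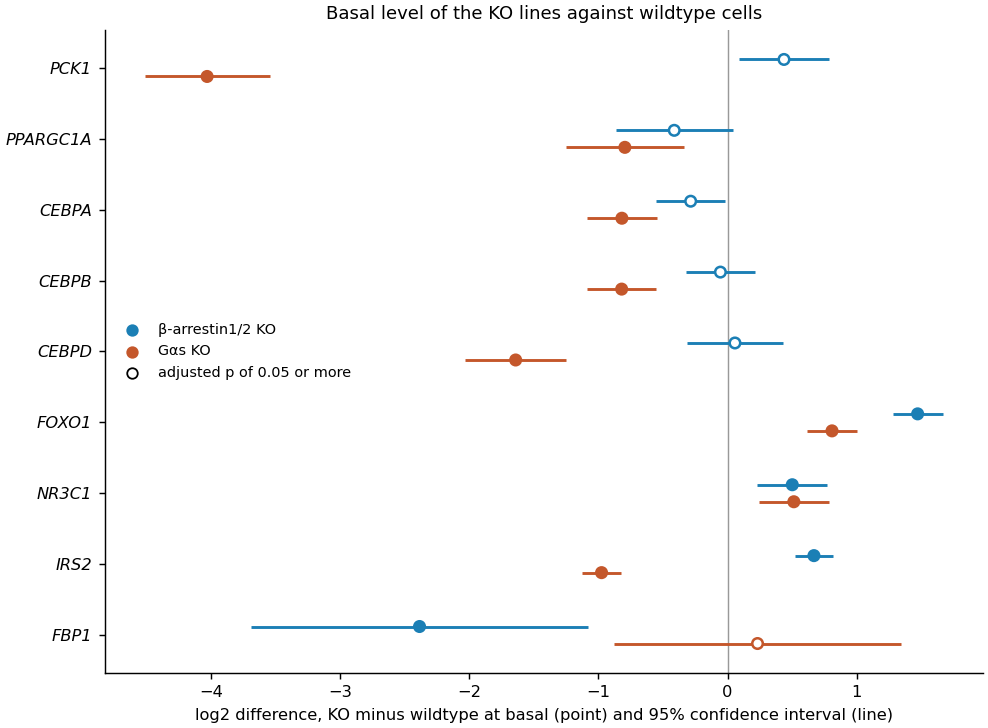
Log2 difference at basal between a KO line and wildtype cells for the 9 genes (points, horizontal axis) with 95% confidence intervals (lines), in blue for β-arrestin1/2 KO and orange for Gαs KO cells, filled where the adjusted p was under 0.05. PCK1, PPARGC1A, the 3 C/EBP genes and IRS2 lie left of 0 in Gαs KO cells, down to -4.03, and FOXO1 and NR3C1 lie right of 0 in both lines.

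Around the 9 genes, more of the enzymes and carriers of gluconeogenesis were called lower than higher in both KO lines at basal. Of 23 tested, 14 were called lower and 0 higher in β-arrestin1/2 KO cells, where 17.9% of all genes were lower, with a median of -0.62. With Gαs deleted 10 were called lower and 0 higher, where 17.1% of all genes were lower, with a median of -0.35. Without wildtype basal replicate 1 the medians were -0.42 and -0.07, with 15 lower and 2 higher in the former line and 10 lower and 4 higher in the latter. In that setting 46.7% and 45.9% of all 15773 genes tested were called. In the former line 3731 of them were lower and 3637 higher, and in the latter 3780 lower and 3456 higher. The aldolases ALDOA and ALDOC, which work in glycolysis as well, were called lower in both lines, with differences of -0.78 and -1.02 where the β-arrestins were deleted and of -0.56 and -0.57 where Gαs was.

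Of the 9 genes, 2 lie on the chromosome of GNAS, the gene disrupted in Gαs KO cells. On chromosome 20 PCK1 lies at -1.31 Mb and CEBPB at -8.68 Mb from GNAS. Genes of that chromosome were on average lower in Gαs KO cells at basal. The median log2 difference of its 407 tested genes was -0.38, the lowest of 23 chromosomes, beside 0.02 over the genes of all other chromosomes, and 198 of the 407 were called lower and 18 higher. Within 5 Mb of GNAS, leaving GNAS out, 48 of 75 genes were called lower, 0 higher, with a median of -0.65. In the stretch 45 to 60 Mb before GNAS the median of 81 genes was 0.02. The β-arrestin1/2 KO median of chromosome 20 was 0.03. Without wildtype basal replicate 1 the chromosome 20 median was -0.32 in Gαs KO cells, the second lowest.

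**Figure D5:**
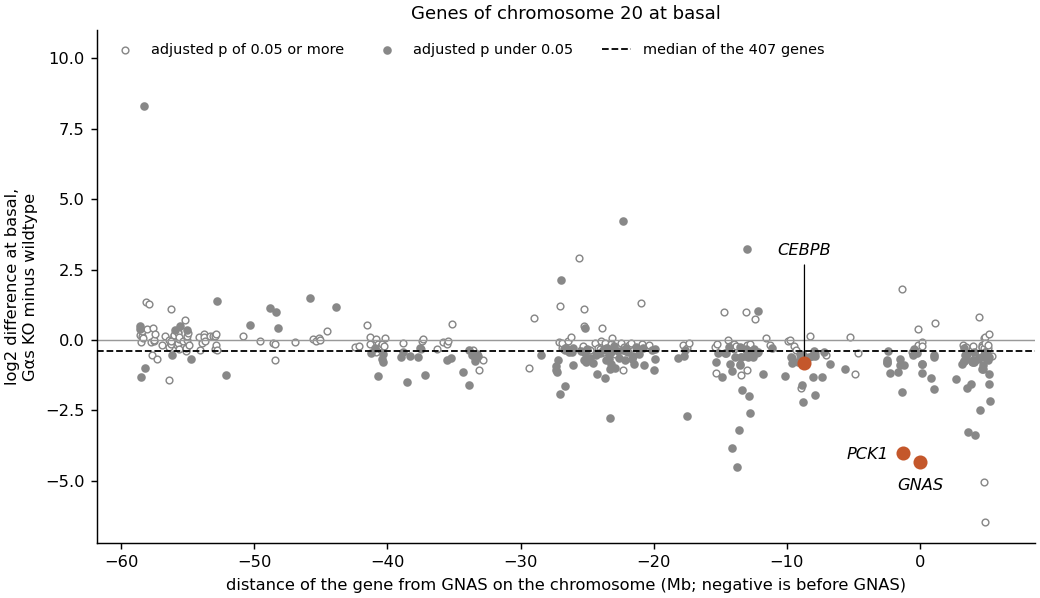
Log2 difference at basal between Gαs KO and wildtype cells (vertical axis) of the 407 tested genes of chromosome 20 by their distance from GNAS in Mb (horizontal axis), filled where the adjusted p was under 0.05, with GNAS, PCK1 and CEBPB in orange and the median of -0.38 as a dashed line. CEBPB, at -0.82, lies within the spread of its neighbours, and PCK1 is at -4.03, where genes within 5 Mb of GNAS have a median of -0.65 and a few, such as SLC17A9 at -3.38 and GATA5 at -3.28, lie near it.

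The other members lie on chromosomes whose medians were nearer to 0 than that of chromosome 20 in Gαs KO cells. Chromosome 13, which carries FOXO1 and IRS2, had the highest median of the 23 in both KO lines, Gαs (0.28) and β-arrestin1/2 (0.35), while FOXO1 differed by 0.81 and 1.47 and IRS2 by -0.98 and 0.67. The chromosome 13 medians, with that replicate left out, were 0.14 and 0.18 and were no longer the highest. The medians of the chromosomes of PPARGC1A, CEBPA, CEBPD, NR3C1 and FBP1 were 0.08, 0.005, -0.19, -0.002 and 0.22 in Gαs KO cells. The part of these regional levels in the basal differences of the members was not tested.

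Compared per length at basal in wildtype cells, IRS2 was the highest of the 9 genes at 60.4 ± 11.5 TPM (SD, n = 3), followed by CEBPB (39.7 ± 7.98), CEBPA (31.0 ± 3.62) and NR3C1 (22.1 ± 3.69). PCK1 (8.99 ± 2.92), FOXO1 (7.95 ± 1.66) and CEBPD (7.07 ± 1.06) came next and did not differ beyond their spread, and FBP1 (2.36 ± 1.47) and PPARGC1A (2.20 ± 0.28) were lowest. With isoproterenol in β-arrestin1/2 KO cells PCK1, at 304 TPM, stood above IRS2 at 116 ± 5.93. At basal without Gαs it stood below all 8 others, the lowest of which was PPARGC1A at 1.57 ± 0.68.

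Some annotated neighbours limit these sums. CEBPB overlaps CEBPB-AS1 on the opposite strand, and PPARGC1A, CEBPA, IRS2 and FBP1 each overlap an antisense gene as well. FOXO1 and NR3C1 each overlap an annotated gene on the same strand, and NR3C1 a further gene on the opposite strand. None of these overlapping genes has a row that could be matched here. Whether strand was used in the counting is not given in the sources used here, so reads of either strand cannot be told apart. For genes on the same strand, strand would not separate the reads.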

How the data were processed

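RNA from 18 HEK293 libraries was enriched for poly-A and sequenced as paired-end reads of 150 bases. The deposited table holds expected counts per transcript, which the authors estimated with Salmon 1.7.0 (GRCh38/hg38 per the submitters' processing notes). The index annotation and the strand setting are not given in the sources used here. Transcripts were matched to GENCODE release 29 by Ensembl identifier (161798 of 184844, holding 92.9 to 93.7% of each library's counts), summed per gene and rounded. PCK2 and LDHA were not analysed here. One marker gene is not reported here. No column of per-sample values was left unused.

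Genes were filtered with filterByExpr, scaled by TMM and fitted with edgeR 4.0.16 in R 4.3.3 (quasi-likelihood test, 1 mean per group, Benjamini-Hochberg adjustment over 15519 genes). The SE is the log2 difference divided by the square root of F, and intervals are at 95%. TPM were computed from these counts and annotated transcript lengths. The number of counts per gene limits precision, and intervals on counts do not cover error in Salmon's assignment. The pipeline was tested on simulated data. Alternatives used DESeq2 1.42.0, other scalings and filters, fewer libraries and a replicate block.

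Named genes were the 9 members, at most 5 called genes per list and comparison, the 6 genes most like PCK1, and PC, FBP2, G6PC, GNAS, ARRB1 and ARRB2. CDKN1A, SLC17A9 and GATA5, outside this rule, were named after their values were seen. The members and lists were chosen with earlier results of these data known. Motifs were searched in RefSeq promoters of GRCh38.p14. Same-numbered replicates did not deviate together (mean correlations between -0.063 and 0.0367), so numbers were not used as pairs.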

Additional observations from a re-analysis of the deposited data

Results flagged for a closer look

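The response of PCK1 differed between cell lines by a test of the difference itself. The log2 response was larger by 1.69 in β-arrestin1/2 KO cells than in wildtype cells (adjusted p = 0.002337, edgeR's quasi-likelihood test), and all 3 stimulated β-arrestin1/2 KO libraries were above all 3 stimulated wildtype libraries. In Gαs KO cells the response of PCK1 differed from that of wildtype cells by -3.20 (adjusted p = 0.0003669). No cause was tested for either.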

How the results depend on the processing

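PCK1 kept its direction and its call in the wildtype and β-arrestin1/2 KO responses, in both differences of response and in the basal comparison of Gαs KO cells under every alternative run. Counts of the 9 genes called were, leaving out 1 library at a time, 1 to 2 for the wildtype response, 1 to 3 for the β-arrestin1/2 KO response, 0 for the Gαs KO response, 1 to 2 and 1 for the differences of the β-arrestin1/2 KO and Gαs KO responses from wildtype, and 4 to 5 and 8 for the basal comparisons. The value of 3 and the 2 for the β-arrestin1/2 KO difference came without wildtype basal replicate 1, when 11.7% and 8.25% of all genes were called. The 2 for the wildtype response came without replicate 3 of that group, when 104 of 15855 genes were called. DESeq2's Wald test called 2 for the wildtype response, and 189 of all 15081 genes it tested. For β-arrestin1/2 KO cells at basal 4 were called, among 5208 of 15519 genes. Fitting only the libraries compared gave 2, among 1501 of 14586. Offsets for GC content and length, chosen after seeing the data, gave 7, among 7497 of 15519, and also 7 together with the replicate block, among 7471. The replicate block alone gave 1, 1 and 0 for the responses, 1 and 1 for the differences, and 5 and 8 at basal. Same-numbered samples correlated by -0.063 in wildtype cells, and no sample of that line correlated best with its own number. In β-arrestin1/2 KO cells the correlation was 0.0305, and 4 of 6 samples correlated best with their own number. In Gαs KO cells these values were 0.008 and 2 of 6.

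Of values for single genes, 1032 kept their side of the threshold and either kept direction or changed sign by no more than 1 SE. A further 18 passed the threshold newly, 4 no longer passed it and 9 changed sign by more than 1 SE without being called. Leaving wildtype basal replicate 1 out of comparisons that do not hold it, and out of the list counts, was also chosen after seeing the data. With the GC and length offsets the wildtype response of NR3C1 was -0.0604 (-0.0605 with the block) and the β-arrestin1/2 KO response of CEBPD 0.1993 (0.2025 with the block). Leaving out 1 library, 16 ranges crossed 0, among them those for the wildtype responses of NR3C1 (-0.0959 to 0.2428) and CEBPA (-0.0779 to 0.2159), for FBP1 in the difference of β-arrestin1/2 KO and wildtype responses (-0.443 to 1.1791), for NR3C1 in that of Gαs KO and wildtype (-0.2994 to 0.0398), and for CEBPB at basal in β-arrestin1/2 KO cells (-0.1742 to 0.0756). With only the libraries compared, PPARGC1A (-0.79, adjusted p = 0.07006) was no longer called in Gαs KO cells at basal, nor FBP1 (-2.38, adjusted p = 0.05304) in β-arrestin1/2 KO cells. The cause was not tested. FBP1 gave no value where 10 counts were required in every library. The counts of FBP1, of G6PC and of PCK1 in Gαs KO cells limit what could be detected there.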
